A study of Mus musculus with 6 samples.

Results

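The hepatocyte transporters of bile acids and organic anions described here are 10 genes, of 37991 genes in the count tables: Slc10a1, Slco1a1, Slco1a4, Slco1b2, Slco2b1, Abcb11, Abcb4, Abcc2, Abcc3 and Abcc4. They were chosen by function, as uptake and export transporters of hepatocytes, and each symbol matched 1 Ensembl identifier. RNA sequencing was done on 2 tumours, 2 KAP1-deleted livers and 2 control livers. Tumours and KAP1-deleted livers came from TgAlbCreKap1lox mice, in which a Cre recombinase driven by the albumin promoter inactivates Trim28, the gene of the co-repressor KAP1, in hepatocytes. The control livers came from mice with the Cre transgene alone (TgAlbCre). All mice, controls included, carried that transgene, were fed a high-fat diet (HFD) for 27 weeks and were killed at 35 weeks of age. The labels name 4 mice, and their codes put tumour 1 and KAP1-deleted liver 1 in one mouse, and tumour 2 and KAP1-deleted liver 2 in another.

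Hepatocytes take bile acids and other organic anions from sinusoidal blood through carriers of the basolateral membrane and release them into bile through ATP-driven pumps of the canalicular membrane. Slc10a1 encodes the sodium-dependent carrier NTCP, and the Slco genes encode sodium-independent organic anion transporting polypeptides (OATPs). Abcb11 (BSEP), Abcb4 and Abcc2 (MRP2) act at the canaliculus, whereas Abcc3 (MRP3) and Abcc4 (MRP4) pump back across the basolateral membrane and are known for their use when bile flow is impaired. Several of these genes are regulated by bile acids through the nuclear receptor FXR (Nr1h4), and Slco1a1 and Slco1a4 are known to differ between the sexes in mouse liver, the first being higher in males and the second in females.

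Trim28, the deleted gene, was read first as a check of the labels. It stood at 5.22 and 4.59 CPM (gene counts as a share of library size, scaled alike in all libraries with TMM factors) in tumours, 5.06 and 6.02 CPM in the KAP1-deleted livers and 32.5 and 35.9 CPM in control livers. Hepatocyte transcripts were abundant throughout, with Alb at 18162 and 34887 CPM in tumours, 53805 and 64523 CPM in the KAP1-deleted livers and 61369 and 74525 CPM in control livers. Libraries held 39723997 to 62178752 counts in genes, and the first principal component, with 60.6% of the variance, set the tumours apart from all livers. Reads of entries that name no gene made up 36.7% and 33.1% in tumours, 24.8% and 20.9% in the KAP1-deleted livers and 27.6% and 20.9% in control livers, and TMM factors were 1.31 and 1.22 in tumours and 0.864 to 0.948 in the livers. The part of these differences in the tumour values was not tested. The 10 transporters were well covered: the lowest count was 89, for Abcc4 in control liver 1, and all 10 passed the filter on low counts.

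The genes lie on 8 chromosomes of the mouse genome (GRCm38, GENCODE M21). Slco1b2, Slco1a4 and Slco1a1 are neighbours in a family cluster on chromosome 6, where Slco1b2 (chr6:141629518-141686646) is on the plus strand and Slco1a4 (chr6:141805440-141856199) and Slco1a1 (chr6:141907282-141946962) are on the minus strand. Promoter windows of 300 bases, 250 before and 50 after the transcription start, were taken from RefSeq (GRCm38.p6) for 9 of the 10 genes, all but Abcc3. There were 2 windows for Slc10a1, 3 for Slco2b1 and 2 for Abcc4, of which only the 1 nearest the annotated gene start was searched. The 9 windows were searched on both strands for the nuclear receptor half-site AGGTCA, the HNF1 half-site GTTAAT and the HNF4 site CAAAGTCCA. They were also searched for the antioxidant response core TGACNNNGC and, with up to 2 mismatches, the FXR inverted repeat. The windows shown are those with a match, and that of Slco1a4, which neighbours Slco1a1 and moved the other way in tumours against control liver. Capitals mark the matches, and positions count from the start site as 1.
The windows are chr6:141629268-141629567 (plus strand), chr6:141856171-141856470 (minus strand), chr6:141946913-141947212 (minus strand), chr2:69342567-69342866 (minus strand), chr19:43782058-43782357 (plus strand) and chr14:118706170-118706469 (minus strand).
Slco1b2: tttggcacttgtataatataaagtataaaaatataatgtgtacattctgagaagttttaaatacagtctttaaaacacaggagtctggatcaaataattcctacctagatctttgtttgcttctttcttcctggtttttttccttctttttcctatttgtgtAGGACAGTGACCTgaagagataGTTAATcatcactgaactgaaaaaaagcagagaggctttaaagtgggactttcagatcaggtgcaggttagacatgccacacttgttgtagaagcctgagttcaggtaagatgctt
Slco1a4: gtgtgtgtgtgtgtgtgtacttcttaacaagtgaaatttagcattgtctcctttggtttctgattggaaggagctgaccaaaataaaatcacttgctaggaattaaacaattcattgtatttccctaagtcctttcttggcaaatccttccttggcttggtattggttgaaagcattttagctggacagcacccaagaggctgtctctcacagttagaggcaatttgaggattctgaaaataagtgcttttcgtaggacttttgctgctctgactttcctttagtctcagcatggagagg
Slco1a1: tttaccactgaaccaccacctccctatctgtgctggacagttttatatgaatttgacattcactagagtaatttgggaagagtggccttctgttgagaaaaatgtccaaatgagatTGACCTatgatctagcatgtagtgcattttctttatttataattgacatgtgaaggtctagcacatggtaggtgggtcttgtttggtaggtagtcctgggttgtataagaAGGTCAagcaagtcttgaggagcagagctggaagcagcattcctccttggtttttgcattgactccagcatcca
Abcb11: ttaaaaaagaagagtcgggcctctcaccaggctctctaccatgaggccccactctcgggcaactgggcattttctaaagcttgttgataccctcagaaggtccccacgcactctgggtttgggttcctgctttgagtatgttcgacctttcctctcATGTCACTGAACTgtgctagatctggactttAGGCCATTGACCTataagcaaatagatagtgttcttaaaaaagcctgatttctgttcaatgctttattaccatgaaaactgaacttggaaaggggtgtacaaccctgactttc
Abcc2: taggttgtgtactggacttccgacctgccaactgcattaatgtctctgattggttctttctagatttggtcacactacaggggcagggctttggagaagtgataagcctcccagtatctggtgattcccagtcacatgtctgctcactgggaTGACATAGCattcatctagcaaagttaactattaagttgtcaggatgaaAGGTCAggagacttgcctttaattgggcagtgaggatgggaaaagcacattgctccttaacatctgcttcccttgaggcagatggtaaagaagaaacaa
Abcc4: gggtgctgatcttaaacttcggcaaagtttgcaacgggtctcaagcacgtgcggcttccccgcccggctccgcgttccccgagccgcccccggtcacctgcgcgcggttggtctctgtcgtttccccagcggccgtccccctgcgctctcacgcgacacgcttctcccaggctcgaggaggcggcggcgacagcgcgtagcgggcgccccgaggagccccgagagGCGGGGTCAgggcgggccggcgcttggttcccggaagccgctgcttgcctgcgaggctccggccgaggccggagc
The FXR inverted repeat was found in the windows of Slco1b2 (at -88) and Abcb11 (at -94 and -63), against 1.14% of the 32851 windows in the table. The half-site AGGTCA was in 4 of the 9 windows, those of Slco1a1 (at -134 and -24), Slco1b2 (at -81), Abcb11 (at -56) and Abcc2 (at -49), and in 16.3% of all windows. In Slco1b2 and Abcb11 it lies inside the inverted repeat. The TGACNNNGC core was in the windows of Abcc2 (at -98) and Abcc4 (at -25), against 12.4% of all windows, and GTTAAT was in that of Slco1b2 (at -66), against 7.1%. CAAAGTCCA (0.475% of all windows) was in none of the 9, and the searched windows of Slc10a1, Slco1a4, Slco2b1 and Abcb4 held none of the 5 motifs. A match describes letters in the window and is not evidence of binding.

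In tumours, uptake carriers held both genes that rose and genes that fell, while canalicular exporters held none that fell. Basolateral exporters held both against control liver. Against KAP1-deleted liver Abcc4 rose, while Abcc3 was lower in both tumours but missed the threshold (-2.55 ± 0.71 on the log2 scale, edgeR adjusted p = 0.0809). The genes called against KAP1-deleted liver were Slco1a4, Abcc2 and Abcc4, which rose, and Slc10a1 and Slco2b1, which fell. Against control liver, Slco1a4, Abcc2 and Abcc4 rose and Slc10a1, Slco1a1, Slco2b1 and Abcc3 fell. The changes spanned 9.21-fold lower (Slc10a1) to 9.51-fold higher (Abcc4) against KAP1-deleted liver. They spanned 11.5-fold lower (Abcc3) to 15.5-fold higher (Abcc4) against control liver. With edgeR's quasi-likelihood test and an adjusted p threshold of 0.05 over 17558 genes, 3 transporters were called higher and 2 lower against KAP1-deleted liver, where 4.80% and 6.64% of all genes were called. Against control liver 3 were called higher and 4 lower, where 6.15% and 7.76% of all genes were called. The balance of all genes turned with the scaling: against KAP1-deleted liver 842 genes were called higher and 1165 lower, but 970 and 896 with upper-quartile scaling, and against control liver 1080 and 1363, but 1200 and 1112. The transporter counts were equal under both scalings. The median log2 fold change of the 10 was 0.46 and 0.67 in these comparisons, beside -0.03 and -0.02 over all genes tested. Both comparisons use the same 2 tumours. In bulk tissue, fewer cells of a type and less RNA per cell cannot be told apart.

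Between KAP1-deleted and control liver none of the 10 was called in the main edgeR fit, where 0.239% of all genes were called higher and 0.0968% lower. Slco1a1 and Slco1a4 had an unadjusted p under 0.05, as did 955 of all genes tested. DESeq2 called those 2 transporters lower and limma-voom called none. Without the low-count filter, edgeR called Slco1a1, Slco1a4 and Abcc3 lower, where 354 of all genes were called higher and 217 lower. The median log2 fold change of the 10 was -0.03, beside 0.00 over all genes.

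**Figure D1:**
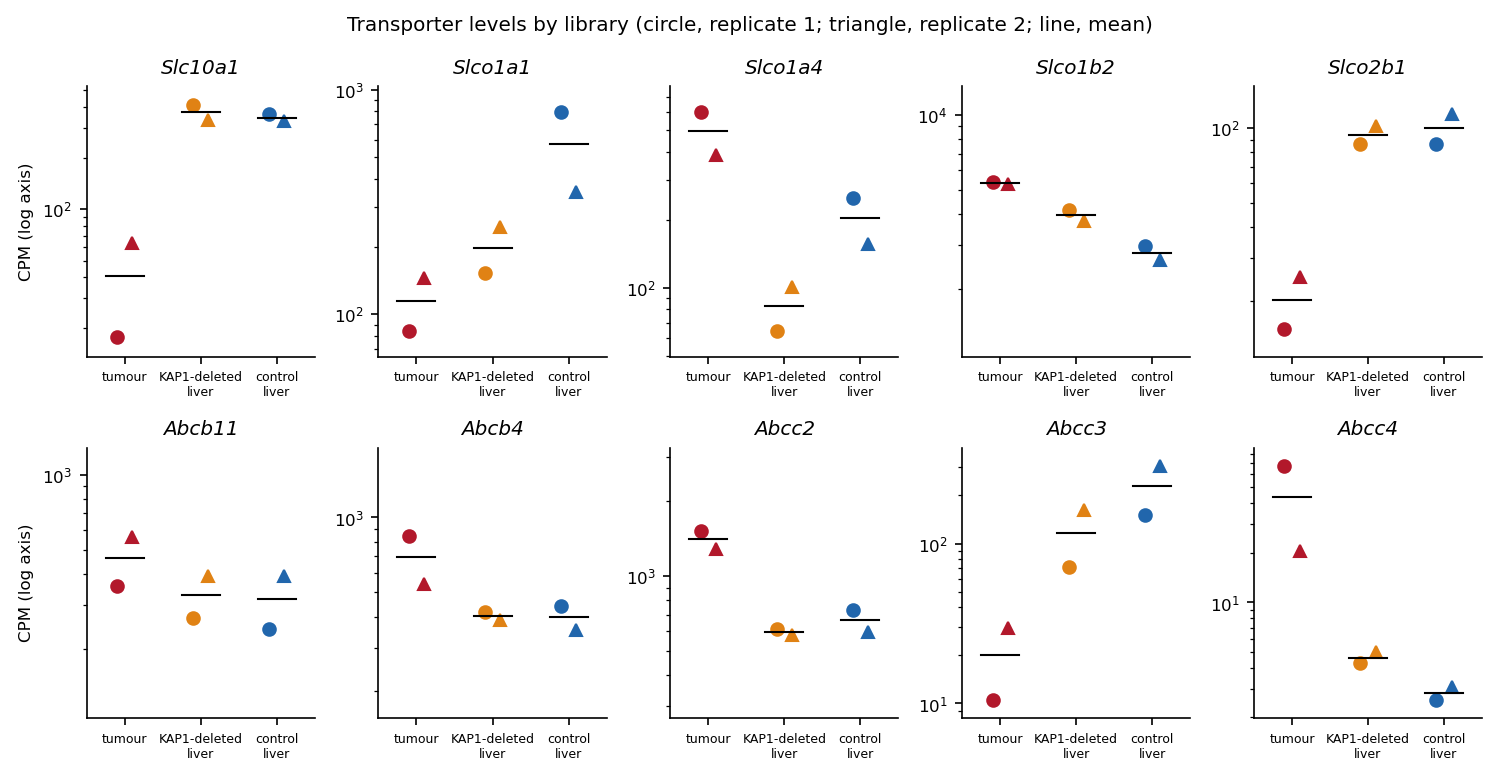
Levels of the 10 transporters in CPM (log axis, a scale of its own for each gene) in tumours, KAP1-deleted livers and control livers. A circle is replicate 1, a triangle replicate 2 and a line the mean of both. Slc10a1, Slco1a1, Slco2b1 and Abcc3 are lowest in both tumours, and Slco1a4, Slco1b2, Abcb4, Abcc2 and Abcc4 are highest there. Of these, edgeR called Slco1b2 and Abcb4 in neither tumour comparison, and Slco1a1 and Abcc3 only against control liver. How many of all genes part in this way was not counted.

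**Figure D2:**
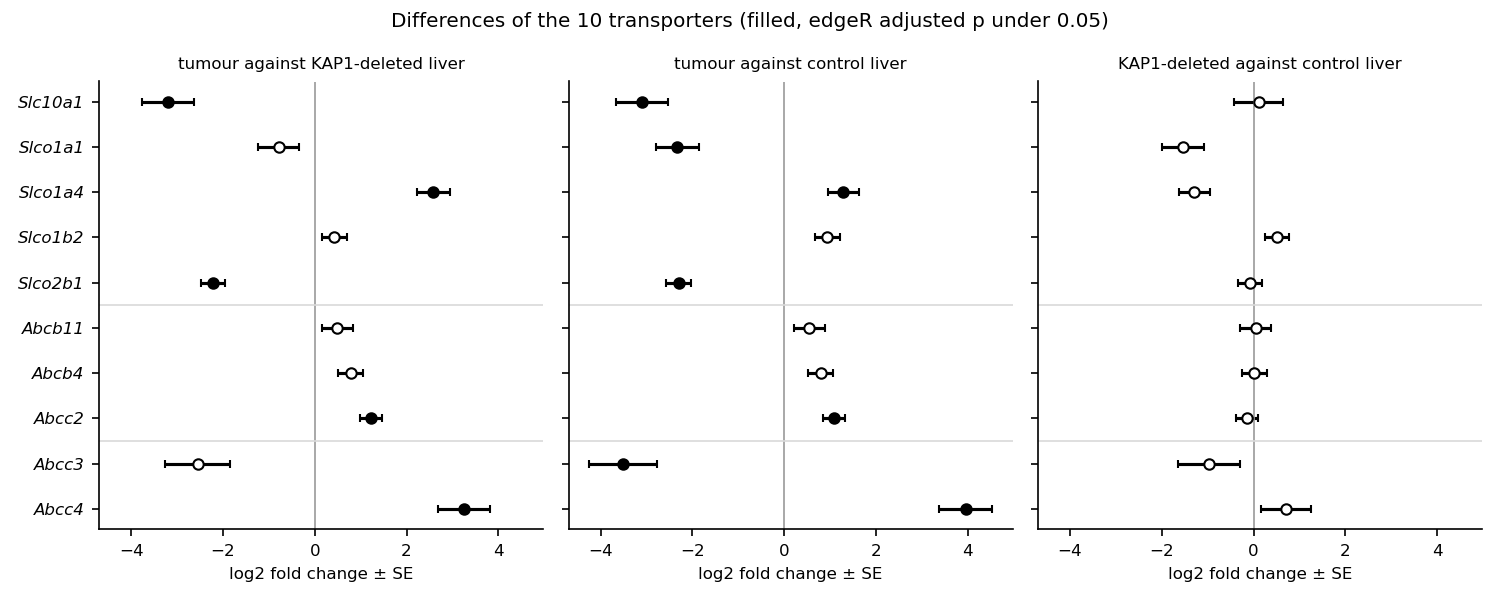
Fitted log2 fold changes ± SE of the 10 transporters for tumour over KAP1-deleted liver, tumour over control liver and KAP1-deleted over control liver. Filled points have an edgeR adjusted p under 0.05, which is the case for 5, 7 and 0 genes in the 3 panels; grey lines part uptake, canalicular and basolateral export.

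Among the uptake carriers, the sodium-dependent bile acid carrier gene Slc10a1 (ENSMUSG00000021135, chr12:80953183-80968705) had 17.7 and 63.1 CPM in tumours, 408 and 335 CPM in the KAP1-deleted livers and 362 and 329 CPM in control livers, with replicate 1 before replicate 2 here and below. Both tumours lay far below all 4 livers, whose values overlapped, and the tumours differed between themselves. Slc10a1 fell in tumours against KAP1-deleted liver (-3.20 ± 0.57 on the log2 scale, adjusted p = 0.0203) and against control liver (-3.10 ± 0.57, adjusted p = 0.0189). Within a mouse the tumour was 23.1-fold and 5.31-fold lower than the liver. KAP1-deleted liver differed from control liver by 0.11 ± 0.53 (adjusted p = 1). The size depended on which tumour was used: without tumour 1 the log2 fold change was -2.56 against KAP1-deleted liver and -2.46 against control liver, and without tumour 2 it was -4.41 and -4.30. The call against KAP1-deleted liver was lost without control liver 1 or 2 (adjusted p = 0.105 and 0.107) and without KAP1-deleted liver 1 or 2 (0.137 and 0.150), and that against control liver without the same libraries (0.134, 0.173, 0.0806 and 0.0794). The call against KAP1-deleted liver was also lost when the mouse was blocked (adjusted p = 0.121).

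Slco2b1 (ENSMUSG00000030737, chr7:99657804-99711340), which encodes OATP2B1, had 15.5 and 25.1 CPM in tumours, 86.0 and 102 CPM in the KAP1-deleted livers and 86.1 and 114 CPM in control livers. The tumours again lay below all livers, and the 2 liver groups overlapped. It fell 4.65-fold in tumours against KAP1-deleted liver (log2 change of -2.22 ± 0.27, adjusted p = 0.00378) and 4.93-fold against control liver (-2.30 ± 0.27, adjusted p = 0.00251), and both calls held without any 1 of the 6 libraries. KAP1-deleted liver differed from control liver by -0.08 ± 0.26 (adjusted p = 1). Of the exon bases of Slco2b1, 7.91% overlap the antisense gene Gm15635, and since the strand setting of the counting is not given, reads there cannot be told apart if strand was ignored.

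The cluster neighbours Slco1a1 and Slco1a4 encode OATP1A1 and OATP1A4. Slco1a1 (ENSMUSG00000041698) had 84.0 and 145 CPM in tumours, 152 and 244 CPM in the KAP1-deleted livers and 799 and 352 CPM in control livers. The 3 groups did not overlap, with control livers highest and widest apart. It fell 5.03-fold in tumours against control liver (log2 change of -2.33 ± 0.47, adjusted p = 0.0218), a call lost without control liver 1 (-1.63, adjusted p = 0.0513) and without tumour 1 (-1.99, adjusted p = 0.101). The difference between tumour and KAP1-deleted liver was -0.79 ± 0.45 (adjusted p = 0.297, and 0.0218 when the mouse was blocked), and that between KAP1-deleted and control liver was -1.54 ± 0.46 (adjusted p = 0.523, and 0.0320 by DESeq2).

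Slco1a4 (ENSMUSG00000030237) had 600.4 and 388 CPM in tumours, 64.2 and 101 CPM in the KAP1-deleted livers and 249 and 156 CPM in control livers. Its order was different from that of Slco1a1: tumours were highest, control livers intermediate and KAP1-deleted livers lowest, with no overlap. It rose 5.98-fold in tumours against KAP1-deleted liver (log2 change of 2.58 ± 0.36, adjusted p = 0.00560), by 9.36-fold and 3.84-fold within the 2 mice, and this call held without any 1 library. Against control liver it rose 2.44-fold (1.29 ± 0.34, adjusted p = 0.0430), a call lost without control liver 2 (0.99, adjusted p = 0.190), tumour 1 (0.94, adjusted p = 0.200) or tumour 2 (1.56, adjusted p = 0.0609) and with limma-voom (adjusted p = 0.0524). Between KAP1-deleted and control liver its difference was -1.29 ± 0.34 (adjusted p = 0.343, and 0.0226 by DESeq2). Per kilobase of exon, Slco1a4 stood at 5.88 and 2.20 times the level of Slco1a1 in tumours, 0.348 and 0.340 times in the KAP1-deleted livers and 0.256 and 0.364 times in control livers. Of their 31-base words, 96% in Slco1a1 and 95% in Slco1a4 occur in no other gene, and the gene that both share most words with is Slco1a5.

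**Figure D3:**
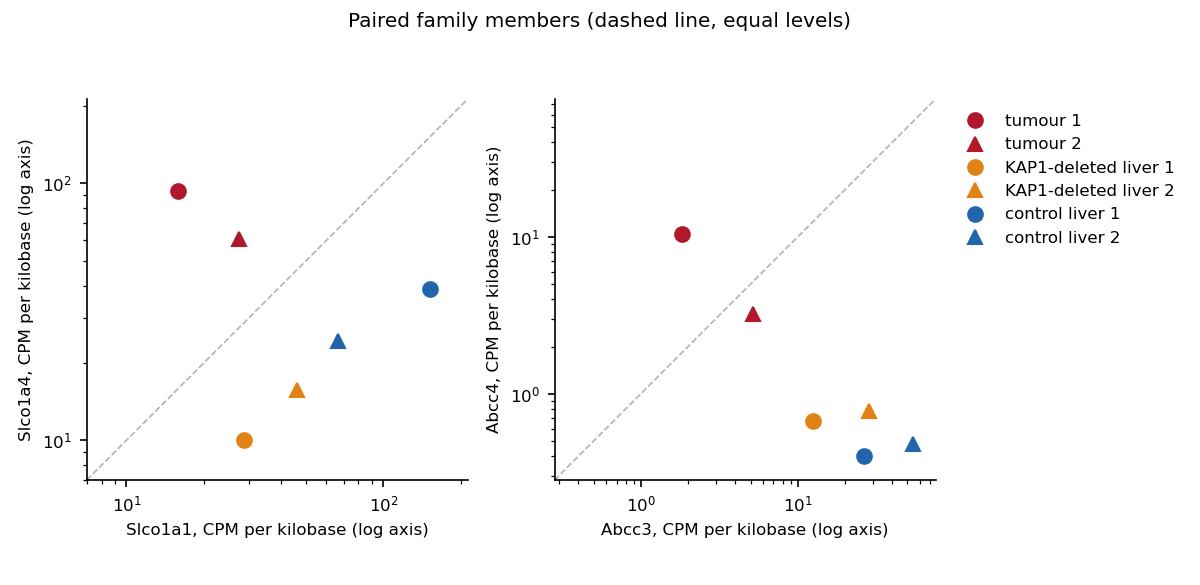
Levels in CPM per kilobase of exon (log axes) of Slco1a4 against Slco1a1 and of Abcc4 against Abcc3, 1 point per library. Both tumours lie above the line of equal Slco1a1 and Slco1a4 levels and all 4 livers below it; for Abcc4 and Abcc3 tumour 1 lies above the line, tumour 2 below it and the livers far below.

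Slco1b2 (ENSMUSG00000030236) encodes the mouse OATP1B transporter, which carries bilirubin, bile acids and many drugs. It had 5359 and 5299.8 CPM in tumours, 4143 and 3763 CPM in the KAP1-deleted livers and 2965 and 2605 CPM in control livers. The 3 groups did not overlap. No difference was called by edgeR: tumour against KAP1-deleted liver was 0.43 ± 0.27 on the log2 scale (adjusted p = 0.328), tumour against control liver 0.94 ± 0.27 (adjusted p = 0.0568, and 7.1e-06 by DESeq2 and 0.0300 by limma-voom) and KAP1-deleted against control liver 0.51 ± 0.27 (adjusted p = 1).

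Per kilobase, Slco1b2 was the highest of the 10 transporters in every group, at 1081 ± 8.47 CPM per kilobase in tumours, 802 ± 54.6 in the KAP1-deleted livers and 565 ± 51.6 in control livers (SD, n = 2). It made up 90.0% and 89.9% of the summed level of the 5 uptake carriers in tumours, 77.9% and 76.7% in the KAP1-deleted livers and 61.9% and 67.1% in control livers. The share of Slc10a1 was 0.665% and 2.40% in tumours, 17.2% and 15.3% in the KAP1-deleted livers and 17.0% and 19.0% in control livers. The sum of the 5 carriers was 1207 and 1196 CPM per kilobase in tumours. It was 1079 and 995 in the KAP1-deleted livers and 971 and 788 in control livers. The summed level was thus not lower in tumours, although Slc10a1, Slco1a1 and Slco2b1 stood below all livers there. How many of all genes stand below all livers in both tumours was not counted. The shares and sums were not tested.

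**Figure D4:**
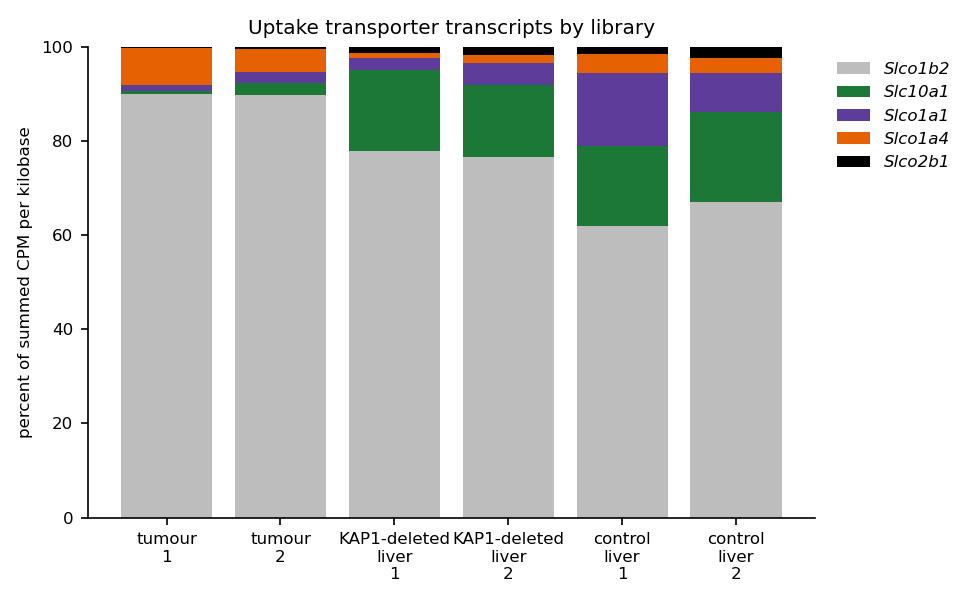
Share of each uptake carrier in the summed CPM per kilobase of the 5 uptake genes, by library. The Slco1b2 share lies at 89.9% to 90.0% in tumours and 61.9% to 77.9% in the livers, and the Slc10a1 share is barely visible in tumours.

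The canalicular exporters stood at or above their liver levels in tumours. Abcc2 (ENSMUSG00000025194, chr19:43782192-43840740), which encodes MRP2, the exporter of bilirubin glucuronides and glutathione conjugates, had 1520.5 and 1291 CPM in tumours, 615 and 580.2 CPM in the KAP1-deleted livers and 734 and 595 CPM in control livers. The tumours lay above all livers, whose groups overlapped. Abcc2 rose 2.35-fold against KAP1-deleted liver (log2 change of 1.23 ± 0.24, adjusted p = 0.0186) and 2.12-fold against control liver (1.08 ± 0.24, adjusted p = 0.0248). The call against KAP1-deleted liver was lost without KAP1-deleted liver 1 or 2 (1.26 and 1.18, adjusted p = 0.107 and 0.163) or tumour 1 (1.11, adjusted p = 0.0816). The call against control liver was lost without control liver 2 (adjusted p = 0.0948), KAP1-deleted liver 1 or 2 (0.0545 and 0.0543) or tumour 1 or 2 (0.0991 and 0.0538). The log2 fold change then lay between 0.94 and 1.19.

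Abcb4 (ENSMUSG00000042476, chr5:8893717-8959231), whose product moves phosphatidylcholine into bile, had 842 and 541 CPM in tumours, 419 and 388 CPM in the KAP1-deleted livers and 441 and 354 CPM in control livers. Both tumours were above all livers, but the differences of 0.78 ± 0.27 against KAP1-deleted liver (adjusted p = 0.103) and 0.80 ± 0.27 against control liver (adjusted p = 0.0897) were not called by edgeR. DESeq2 called both (adjusted p = 0.0224 and 0.0201). Abcb11 (ENSMUSG00000027048, chr2:69238282-69342616), the bile salt export pump gene, had 358 and 564 CPM in tumours, 265 and 390.1 CPM in the KAP1-deleted livers and 239 and 393 CPM in control livers. The 3 groups overlapped, while within a mouse the tumour was 1.35-fold and 1.45-fold above the liver. Its differences were 0.49 ± 0.34 against KAP1-deleted liver (adjusted p = 0.372) and 0.55 ± 0.34 against control liver (adjusted p = 0.324). Of its exon bases, 2.64% overlap the antisense gene Gm13613. Between KAP1-deleted and control liver the log2 differences of the 3 canalicular genes were -0.15 for Abcc2, 0.02 for Abcb4 and 0.05 for Abcb11 (adjusted p = 1 each). Summed per kilobase, the 3 stood at 338 and 319 CPM per kilobase in tumours, 168 and 185 in the KAP1-deleted livers and 179 and 184 in control livers.

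Of the 2 basolateral exporters, Abcc4 stood above all livers in both tumours and Abcc3 below all livers. Abcc4 (ENSMUSG00000032849, chr14:118482692-118706219), which encodes MRP4, an exporter of bile acids with glutathione and of cyclic nucleotides, had 67.3 and 20.6 CPM in tumours, 4.27 and 4.98 CPM in the KAP1-deleted livers and 2.57 and 3.07 CPM in control livers. The groups did not overlap, and tumour 1 was well above tumour 2. It rose 9.51-fold against KAP1-deleted liver (log2 change of 3.25 ± 0.56, adjusted p = 0.0194) and 15.5-fold against control liver (3.96 ± 0.58, adjusted p = 0.0101). Within a mouse, the tumour was 15.8-fold and 4.15-fold higher than the liver. Without tumour 1 the log2 fold change was 2.15 against KAP1-deleted liver and 2.86 against control liver, and without tumour 2 it was 3.85 and 4.56. The call against KAP1-deleted liver was lost without control liver 1 or 2 (adjusted p = 0.107 for each), without KAP1-deleted liver 1 or 2 (0.202 and 0.228) and when the mouse was blocked (0.152). The call against control liver was lost without the same 4 libraries (0.137, 0.181, 0.0616 and 0.0587). KAP1-deleted liver differed from control liver by 0.71 ± 0.54 (adjusted p = 1).

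Abcc3 (ENSMUSG00000020865, chr11:94343295-94392997), which encodes MRP3, the basolateral exporter of glucuronides, had 10.5 and 29.5 CPM in tumours, 71.0 and 163 CPM in the KAP1-deleted livers and 150.1 and 307 CPM in control livers. Tumours were below all livers, and the 2 liver groups overlapped. It fell 11.5-fold in tumours against control liver (log2 change of -3.52 ± 0.74, adjusted p = 0.0364). That call was lost without control liver 1 (-3.96, adjusted p = 0.113) or 2 (-2.91, adjusted p = 0.247), KAP1-deleted liver 1 or 2 (-3.53 each, adjusted p = 0.0820 and 0.0863) or tumour 1 (-2.96, adjusted p = 0.0592), and without tumour 2 the value was -4.46. Against KAP1-deleted liver the difference of -2.55 ± 0.71 missed the threshold (adjusted p = 0.0809). It passed with DESeq2 (0.0219), with limma-voom (0.0302), without tumour 2 (-3.49, adjusted p = 0.0395) and when the mouse was blocked (2.6e-06). Within a mouse, the tumour was 6.78-fold and 5.52-fold lower than the liver. Between KAP1-deleted and control liver it differed by -0.97 ± 0.67 (adjusted p = 1, and 0.00445 by edgeR without the low-count filter).

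Abcc4 made up 85.1% and 38.4% of the summed level per kilobase of this pair in tumours, 5.09% and 2.65% in the KAP1-deleted livers and 1.5% and 0.884% in control livers. The sum was 12.4 and 8.41 CPM per kilobase in tumours, 13.1 and 29.4 in the KAP1-deleted livers and 26.7 and 54.4 in control livers.

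The order of the 10 by CPM per kilobase differed between groups. In tumours Slco1b2 was followed by Abcc2 (165 ± 19.0), Abcb11 (89.6 ± 28.3), Slco1a4 (77.1 ± 23.4) and Abcb4 (73.7 ± 22.7), the last 3 of which overlapped, and then by Slco1a1 (21.7 ± 8.17), Slc10a1 (18.4 ± 14.6), Abcc4 (6.88 ± 5.16), Abcc3 (3.51 ± 2.36) and Slco2b1 (3.40 ± 1.14), each overlapping the next. In KAP1-deleted livers Slc10a1 (169 ± 23.4) was second, and Abcc2 (70.0 ± 2.86), Abcb11 (63.6 ± 17.2), Abcb4 (43.0 ± 2.32), Slco1a1 (37.5 ± 12.4), Abcc3 (20.5 ± 11.4), Slco2b1 (15.8 ± 1.94), Slco1a4 (12.9 ± 4.06) and Abcc4 (0.724 ± 0.0785) followed. There, Abcc2 overlapped Abcb11, Abcb4 overlapped Slco1a1, and Abcc3, Slco2b1 and Slco1a4 formed an overlapping run. In control livers the order was Slco1b2, Slc10a1 (157 ± 10.8), Slco1a1 (109 ± 60.0), Abcc2 (77.9 ± 11.6), Abcb11 (61.4 ± 21.2), Abcb4 (42.3 ± 6.55), Abcc3 (40.1 ± 19.5), Slco1a4 (31.5 ± 10.3), Slco2b1 (16.8 ± 3.26) and Abcc4 (0.442 ± 0.0557). Each from Slc10a1 to Abcc3 overlapped the next one there.

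Marker genes of hepatocyte zones and of other liver cells moved with the tumours. Over all genes tested, 4.80% were called higher and 6.64% lower in tumours against KAP1-deleted liver, and 6.15% and 7.76% against control liver. The 10 periportal markers summed to 603 and 908 CPM in tumours, 5038 and 4895 CPM in the KAP1-deleted livers and 6267 and 4844 CPM in control livers, and 7 of 10 were called lower in each tumour comparison. Of 9 tested pericentral markers, 7 were called higher against KAP1-deleted liver and 6 against control liver, with sums of 20189 and 17668 CPM in tumours, 6362 and 8860.1 CPM in the KAP1-deleted livers and 8035 and 8973 CPM in control livers. General hepatocyte markers summed to 51218 and 67993 CPM in tumours, 104961 and 109621 CPM in the KAP1-deleted livers and 108490.3 and 113423 CPM in control livers. Alb and Apob made up most of this sum, and neither was called in a tumour comparison. On the log2 scale Alb differed by -1.16 ± 0.44 against KAP1-deleted liver and -1.36 ± 0.44 against control liver, and Apob by -0.14 ± 0.34 and 0.12 ± 0.34. Kupffer cell and macrophage markers summed to 229 and 344 CPM in tumours, 538 and 555 CPM in the KAP1-deleted livers and 545 and 511 CPM in control livers. Cholangiocyte markers, at 45.2 and 88.5 CPM in tumours, 108 and 93.2 CPM in the KAP1-deleted livers and 31 and 63.3 CPM in control livers, had 0 of 7 tested called. Most of that sum was Slc10a2, a bile acid carrier that is also in a companion list, at 39.9 and 64.5 CPM in tumours, 76.9 and 55.4 CPM in the KAP1-deleted livers and 12.2 and 28.5 CPM in control livers. Of the 7, 0 had a positive log2 fold change in tumours against KAP1-deleted liver (median -1.42) and 1, Slc10a2, against control liver (median -0.92). Of 10 markers each, 4 hepatocyte, 5 Kupffer cell and macrophage, 3 endothelial and 2 stellate cell markers were called lower against KAP1-deleted liver, and 5, 6, 3 and 2 against control liver, while of 9 lymphocyte markers 0 and 1 were called higher. No marker of these lists was at 0 in all libraries, and the part of any of them in the transporter values was not tested.

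For transporters called in a tumour comparison, the genes with the most similar profile were taken from 8581 genes by the root mean square distance of centred log2 CPM over the 6 libraries. Slc10a1 was nearest to C8a, a complement component (0.134), Arg1, the urea cycle arginase (0.161), and Amdhd1, an enzyme of histidine breakdown (0.182). Slco2b1 was nearest to Mfsd4b1 (0.106) and Vipr1, a receptor of vasoactive intestinal peptide (0.115). Abcc3 was nearest to Hectd2os (0.141). The distances were larger for Slco1a1, nearest to Cyp2c54 (0.334), for Abcc4, nearest to the cytochrome gene Cyp2a5 (0.343), and for Slco1a4, nearest to Csrp2 (0.431). With only 6 libraries, in which the tumours stand apart, such distances describe these samples.

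Other transporters, regulators and enzymes of bile acid handling were read from 5 companion lists. In these, no gene but Cyp7b1 was called between KAP1-deleted and control liver, where 0.239% of all genes were called higher and 0.0968% lower. In tumours, 4.80% of all genes were called higher and 6.64% lower against KAP1-deleted liver, and 6.15% and 7.76% against control liver. The naming rule takes up to 3 called genes of a list with the smallest adjusted p, and the text describes part of them, mainly those whose call held without each library. Of 10 tested export and canalicular partners, 0 rose and 2 fell in tumours against KAP1-deleted liver (0 and 3 against control liver), with median log2 fold changes of 0.29 and 0.10. Slc47a1, the MATE1 cation exporter of the canaliculus, had 35.8 and 29.2 CPM in tumours, 86.0 and 98.9 CPM in the KAP1-deleted livers and 87.8 and 114 CPM in control livers. It fell by 1.51 ± 0.21 on the log2 scale against KAP1-deleted liver (adjusted p = 0.00567) and by 1.64 ± 0.21 against control liver (adjusted p = 0.00324). Of 12 other uptake transporters, 2 rose and 2 fell against KAP1-deleted liver, and 1 rose and 2 fell against control liver (medians 0.19 and 0.22). Slco2a1, a prostaglandin transporter of the OATP family, had 2.82 and 2.70 CPM in tumours, 8.54 and 6.10 CPM in the KAP1-deleted livers and 16.8 and 14.1 CPM in control livers, and fell by 2.48 ± 0.24 against control liver (adjusted p = 0.00112). Slc16a1, the monocarboxylate carrier MCT1, rose in tumours by 1.48 ± 0.19 on the log2 scale against control liver (adjusted p = 0.00337).

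Of 13 tested bile acid sensors and transporter regulators, 1 rose and 0 fell in tumours against KAP1-deleted liver (median -0.47), where 4.80% and 6.64% of all genes were called. Against control liver 1 rose and 3 fell (median -0.68), where 6.15% and 7.76% of all genes were called. Nr1h4, the gene of FXR, had 91.1 and 81.4 CPM in tumours, 123 and 112 CPM in the KAP1-deleted livers and 155 and 149 CPM in control livers. It fell in tumours against control liver (log2 change of -0.81 ± 0.17, adjusted p = 0.0216), a call lost without tumour 1 (-0.90, adjusted p = 0.0755) or tumour 2 (-0.74, adjusted p = 0.111). Ahr, the aryl hydrocarbon receptor gene, rose by 1.38 ± 0.23 on the log2 scale against KAP1-deleted liver (adjusted p = 0.0114). That call was lost without KAP1-deleted liver 2 (1.27, adjusted p = 0.0639) or tumour 1 (1.08, adjusted p = 0.0608).

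Of 13 bile acid synthesis and conjugation genes, 1 rose and 3 fell in tumours in each comparison (medians -0.24 and -0.01). Of all genes, 4.80% and 6.64% were called against KAP1-deleted liver, and 6.15% and 7.76% against control liver. Those of the list that fell were Cyp8b1, Akr1d1 and Baat against KAP1-deleted liver, and Cyp8b1, Akr1d1 and Cyp7b1 against control liver. Cyp7b1, the oxysterol hydroxylase of the alternative pathway, had 10.7 and 10.7 CPM in tumours, 19.2 and 20.3 CPM in the KAP1-deleted livers and 269.8 and 114 CPM in control livers. In KAP1-deleted liver it fell by 3.28 ± 0.39 on the log2 scale against control liver (adjusted p = 0.0244), or by 2.53 without control liver 1. That call was lost without KAP1-deleted liver 1 or 2 (adjusted p = 0.120 and 0.129) or tumour 1 or 2 (0.0616 and 0.0622). Cyp7b1 fell by 4.16 ± 0.40 on the log2 scale in tumours against control liver (adjusted p = 0.00139), and the value was -3.43 without control liver 1. In tumours against KAP1-deleted liver its difference was -0.88 ± 0.36 and was not called by edgeR (adjusted p = 0.155). Of 12 scaffolding and trafficking genes, 2 rose and 1 fell in each tumour comparison (medians 0.07 and 0.18). Myo5b, the myosin that carries recycling vesicles with canalicular transporters, had 72.5 and 72.4 CPM in tumours, 27.3 and 29.8 CPM in the KAP1-deleted livers and 30.3 and 33.9 CPM in control livers. It rose by 1.34 ± 0.16 on the log2 scale against KAP1-deleted liver (adjusted p = 0.00357) and by 1.17 ± 0.16 against control liver (adjusted p = 0.00453).

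**Figure D5:**
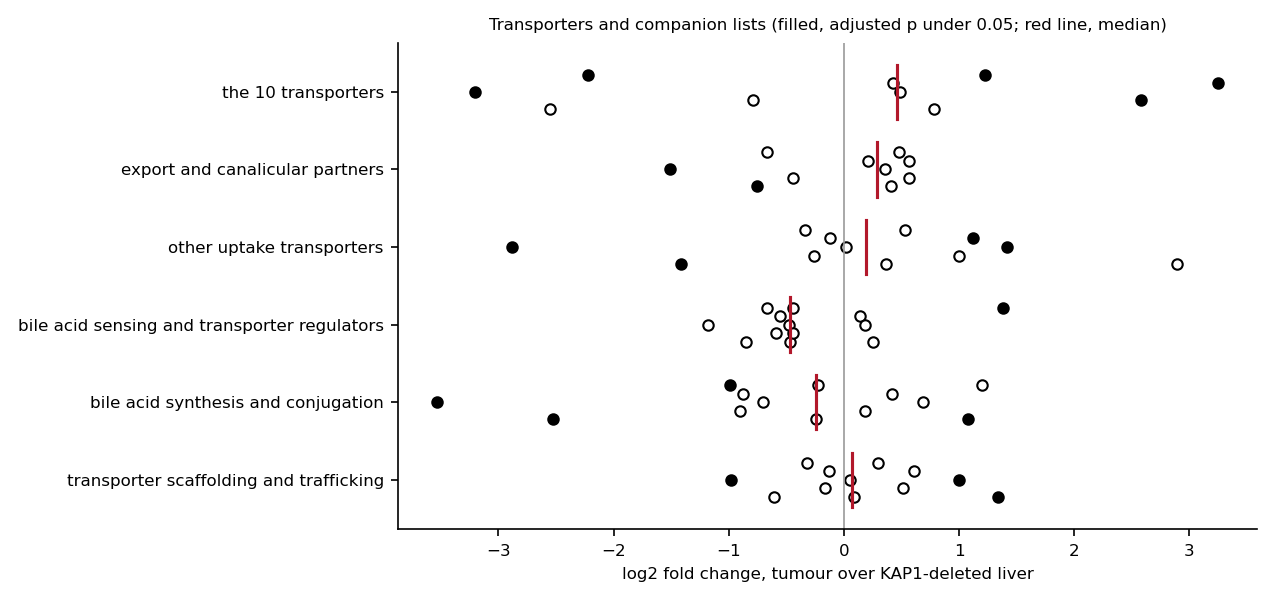
Log2 fold changes, tumour over KAP1-deleted liver, of the 10 transporters and of the genes of 5 companion lists, 1 point per gene tested. Filled points have an edgeR adjusted p under 0.05 and red lines are medians, which lie at 0.46 for the transporters and between -0.47 and 0.29 for the lists.

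Because Slco1a1 and Slco1a4 are known to differ between the sexes, genes biased to either sex in mouse liver were also read. The sex of the mice was not used in any comparison, and its part in these values was not tested. As before, 4.80% of all genes were called higher and 6.64% lower in tumours against KAP1-deleted liver, and 6.15% and 7.76% against control liver. Of 12 genes biased to males, a list that holds Slco1a1, 0 rose and 5 fell in tumours against KAP1-deleted liver, and 1 rose and 4 fell against control liver (medians -1.67 and -1.74). Slco1a1 itself is among those that fell against control liver and enters both medians. Cyp4a12a, a fatty acid hydroxylase gene, had 29.4 and 51.2 CPM in tumours, 156 and 177 CPM in the KAP1-deleted livers and 84.9 and 76.3 CPM in control livers, and fell by 2.05 ± 0.27 on the log2 scale against KAP1-deleted liver (adjusted p = 0.005). Of 14 tested genes biased to females, 4 rose and 2 fell against KAP1-deleted liver and 5 rose and 0 fell against control liver (medians -0.87 and 1.13). Against KAP1-deleted liver 7 of the 14 had a positive log2 fold change. Those that rose there were Cyp2a4 and the family members Cyp3a16, Cyp3a44 and Cyp3a41b. Those that fell were Cyp17a1 (-3.30 ± 0.59, adjusted p = 0.0249) and A1bg (-3.21 ± 0.77, adjusted p = 0.0353), the latter at most 0.409 CPM. Cyp3a16 had 6.01 and 4.44 CPM in tumours, 0.749 and 1.23 CPM in the KAP1-deleted livers and 0.751 and 1.12 CPM in control livers, and rose by 2.40 ± 0.35 on the log2 scale against KAP1-deleted liver (adjusted p = 0.00722). Cyp4a12a and Cyp3a16 have close relatives in their gene families, with which reads could be shared. Between KAP1-deleted and control liver 1 of the 12 was called higher and 1 lower, and 0 of the 14 were called, with medians of 0.20 and 0.95. There, 0.239% of all genes were called higher and 0.0968% lower.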

How the data were processed

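Gene expression was measured by RNA sequencing of total RNA, with a stranded library kit per the labels' protocols. The deposited files hold raw read counts for each Ensembl gene, made by the authors with TopHat and HTSeq 0.6.1 on genome build mm9 per the submitters' processing notes. The TopHat version, annotation and strand setting were not given in the sources used here. The extraction protocol mentions cell lines, but the samples are labelled as tissue, and they share 1 batch label. Entries that name no gene (33.1% and 36.7% of counted reads in tumours, 20.9% to 27.6% in livers) were left out.

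Of 37991 identifiers, 32919 matched a symbol of the GRCm38 reference. Counts were fitted with edgeR 4.0.16 in R 4.3.3: filterByExpr by group (minimum count 10, minimum total 15), TMM scaling, 1 mean per group over all 6 libraries and a robust quasi-likelihood fit (3 residual degrees of freedom, common biological coefficient of variation 0.230). Two-sided p-values were adjusted by Benjamini-Hochberg over 17558 genes. The SE is the size of the log2 fold change over the square root of F. CPM used TMM library sizes, and levels per kilobase used exon lengths of GENCODE M21. Chi-square per degree of freedom between replicates was 82.6 to 321, above sampling noise. The mouse codes pair each tumour with a KAP1-deleted liver, and deviations of same-mouse libraries from their group means correlated with r = 0.185 across genes. A fit with the mouse as a block leaves 1 residual degree of freedom.

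The alternatives tried were upper-quartile scaling, DESeq2 size factors, no filter, the DESeq2 1.42.0 and limma-voom 3.58.1 tests, the 20 most abundant genes left out, the 4 libraries compared alone, the mouse block, and each library left out. The transporters, companion lists, markers and the rule for named genes (all 10 transporters; up to 3 called genes of a list per comparison; the 3 nearest genes by profile) were chosen with earlier results of these data known. Among the nearest, predicted genes and those under a mean CPM of 5 were left out, and some genes that the rule takes are not reported here. With 2 libraries per group and no statement of how the mice were bred, p-values reflect only how far these samples spread.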

Additional observations from a re-analysis of the deposited data

How the results depend on the processing

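With 2 libraries per group, 330 of 400 transporter values (a gene, a comparison and an alternative) kept their direction and side of the threshold, 42 lost a call, 19 gained one and 9 changed sign, all 9 uncalled and between KAP1-deleted and control liver. Those were Abcb4 (-0.0007 with upper-quartile scaling) and, with 1 library left out, Abcb4 (-0.15 to 0.19), Abcb11 (-0.27 to 0.44), Abcc2 (-0.32 to 0.0033), Slco2b1 (-0.27 to 0.11) and Slc10a1 (-0.04 to 0.24). The calls of Slco2b1 in both tumour comparisons and of Slco1a4 against KAP1-deleted liver held in every alternative.

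Counts are given as genes higher, genes lower. Without the low-count filter, 354 and 217 genes were called between KAP1-deleted and control liver (3 transporters lower), 1563 and 2256 between tumour and KAP1-deleted liver (4 transporters lower) and 1801 and 2314 between tumour and control liver (5 transporters higher). DESeq2's test called 152 and 78 genes between KAP1-deleted and control liver (2 transporters lower), and 5 transporters higher in tumour against control liver. Limma-voom called 16 and 11 genes between KAP1-deleted and control liver. With only the 4 libraries compared, 13 and 7 genes were called there, and 1 and 2 transporters lower in tumour against KAP1-deleted and control liver. That setting ended the calls of Slc10a1 (adjusted p = 0.0967) and Abcc4 (0.0907) against KAP1-deleted liver and of Slc10a1 (0.0702), Abcc2 (0.0589) and Abcc3 (0.0627) against control liver.

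Leaving out 1 library gave 20 to 64 genes higher and 8 to 20 lower between KAP1-deleted and control liver, with 0 transporters called. Between tumour and KAP1-deleted liver it gave 295 to 1093 and 265 to 1684 genes, and 1 to 3 transporters higher and 1 to 3 lower. Between tumour and control liver it gave 663 to 998 and 440 to 1623 genes, and 0 to 2 transporters higher and 1 to 4 lower. A fit left with 1 library in a group takes that library's spread from the other groups.

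With the mouse as a replicate block, 1571 and 2318 genes were called between tumour and KAP1-deleted liver. Among the transporters the block ended the calls of Slc10a1 (-3.47) and Abcc4 (3.01), made Slco1a1 (-0.80) and Abcc3 (-2.61) called lower, and changed no other call. The cause of these shifts was not tested. Upper-quartile scaling moved the median log2 fold change of all genes by 0.09 in tumour against KAP1-deleted liver and by 0.08 in tumour against control liver. DESeq2 size factors moved them by 0.05 and 0.03.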
